A study of Mus musculus with 6 samples.

Results

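The enzymes that remove superoxide and hydrogen peroxide were examined in mouse embryonic stem cells treated with paraquat, with and without Pml. The members, set by a list of gene names, were 10 of the 24421 genes in the deposited RNA-seq table. They were the superoxide dismutases Sod1, Sod2 and Sod3, the copper chaperone Ccs, catalase (Cat) and the peroxiredoxins Prdx2, Prdx3, Prdx4, Prdx5 and Prdx6. All 4 RNA-seq libraries came from the male E14 line, kept with serum, leukemia inhibitory factor, CHIR99021 and PD0325901, and every culture received 10 µM paraquat for 15 h. Polyadenylated RNA of wild-type cells (n = 2 libraries) was compared with that of Pml-/- cells (n = 2 libraries). Cells without paraquat were not analysed here, so the comparison is of genotypes under treatment and not of treated with untreated cells. The labels give neither the number of knockout clones nor whether replicate libraries came from separate cultures, so each p-value reflects the spread of these libraries alone, which may be technical.

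Paraquat takes an electron from cellular reductases and passes it to oxygen, which makes superoxide. Superoxide dismutases turn superoxide into hydrogen peroxide, and catalase and peroxiredoxins then break the peroxide down. SOD1 uses copper and zinc and works in the cytosol and the space between the mitochondrial membranes, SOD2 uses manganese in the mitochondrial matrix, and SOD3 is secreted. Peroxiredoxins reduce peroxides with a reactive cysteine, which most of them restore through thioredoxin.

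Levels are given as CPM, the reads of a gene per 1000000 reads counted in genes, and each log2 fold change is Pml-/- minus wild type on the log2(CPM + 1) scale. Library depth ran from 31384794 to 44130093 reads. Pml itself had 238 and 228 CPM in the wild-type libraries and at 78.7 and 89.7 CPM in the Pml-/- libraries, a fall by 1.46 on the log2 scale (limma, adjusted p = 4.43e-10). The libraries also differed in the Y-linked gene Ddx3y, at 160 and 164 CPM in wild type and at 8.91 and 8.53 CPM in Pml-/-. No other Y-linked gene is reported here. The part of such a difference between the lines in the Prdx6 result was not tested. All 9 stem cell markers on the list, among them Pou5f1 and Sox2, had a mean of at least 1 CPM. Their summed level lay between 6507 and 6592 CPM in every library, with 2 of 9 called, in opposite directions. Zfp42 was lower in Pml-/- (log2 fold change -0.27, limma adjusted p = 0.00251) and Tdgf1 was higher (0.17, limma adjusted p = 0.0444). Markers of primitive endoderm, mesoderm and trophoblast summed to 6.82 to 11.0 CPM a list. Eomes, at 5.74 to 6.85 CPM, is on both the mesoderm and the trophoblast list and made up most of each sum. Fibroblast markers summed to 13.7 to 15.7 CPM with Dcn at 0, and the blood and macrophage markers summed to 17.9 to 21.5 CPM, all of it Cd68, with Ptprc, Hba-a1 and Adgre1 at 0. In bulk RNA, fewer cells of a type and less RNA per cell cannot be told apart.

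Of the 10 genes, 9 were expressed highly enough to be tested, and 1 of them, Prdx6, differed between the genotypes. Prdx6 rose in Pml-/-, and no member fell. The other 8 stayed near their wild-type level, and 4 of these had a log2 fold change above 0 and 4 below. Across all 12710 tested genes, limma called 687 at an adjusted p of 0.05, which is 5.41%, with 1.95% higher and 3.45% lower in Pml-/-. That count was 439 without wild-type library 1 and 367 without Pml-/- library 2. The count of 0 members lower was also 0 at an unadjusted limma p under 0.05, where 10.8% of all tested genes were lower. It was 0 by edgeR and by DESeq2 on the recovered reads, which called 2.71% and 2.42% of their tested genes lower. The median log2 fold change was 0.0030 over the 9 members and -0.0029 over all tested genes, and the median size of the change was 0.023 over the members and 0.086 over all tested genes. The wild-type and Pml-/- libraries did not overlap in 1 of the 9 members, against 49.3% of all tested genes.

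**Figure D1:**
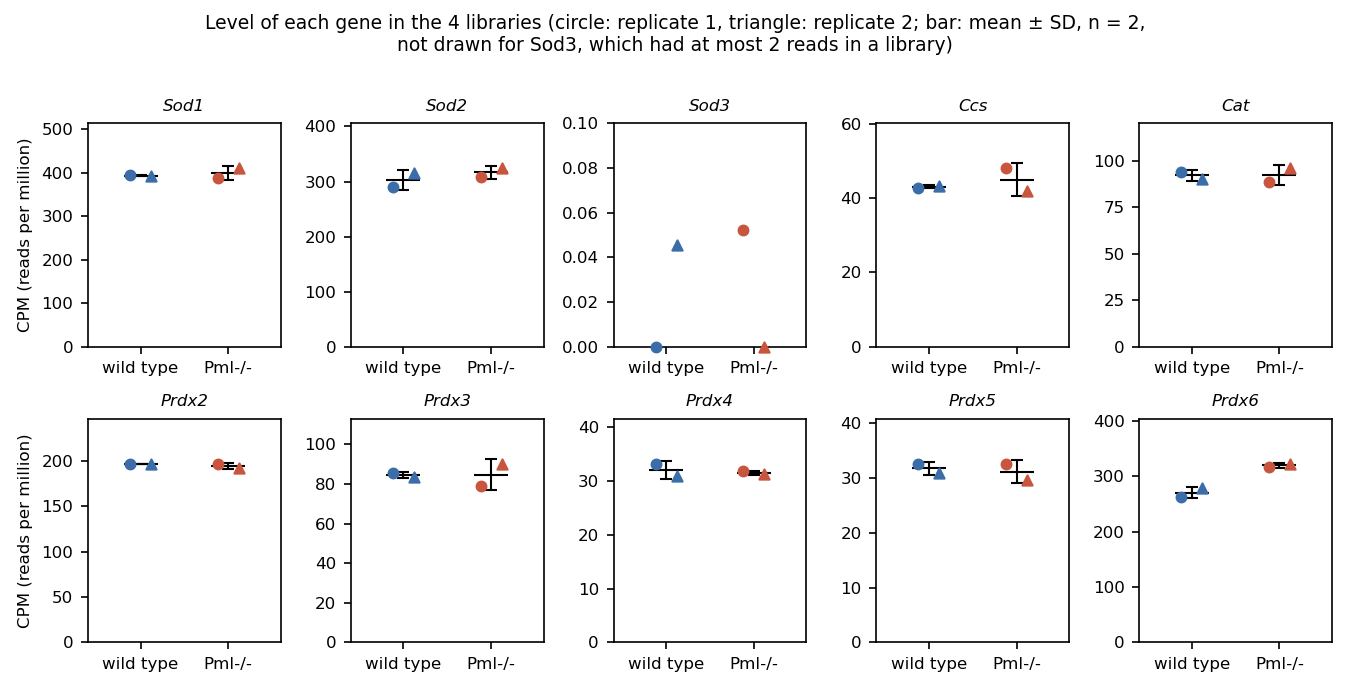
Each panel plots the CPM (vertical axis, from 0) of a gene in the 2 wild-type libraries (blue) and the 2 Pml-/- libraries (red), with circles for replicate 1, triangles for replicate 2 and bars for the mean ± SD. The groups separate for Prdx6 and overlap in each other panel, and the Sod3 panel shows values from 0 to 0.052 CPM without bars.

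Among the superoxide dismutases, Sod1 (chr16:90220762-90226333, RefSeq on GRCm38.p6) was at 393 CPM in both wild-type libraries and at 389 and 411 CPM in the Pml-/- libraries. The wild-type values lay between those of Pml-/-. Its means were 393 ± 0.489 CPM in wild type and 399.7 ± 15.7 CPM in Pml-/- (SD, n = 2), a log2 fold change of 0.023 with a 95% confidence interval of -0.070 to 0.12 (limma, adjusted p = 0.826). Sod2 (chr17:13007839-13018119), the gene of the mitochondrial enzyme, was at 290.3 and 316 CPM in wild type and at 308 and 325 CPM in Pml-/-. The groups overlapped, and the 8.87% gap between the wild-type libraries was wider than the 4.38% gap between the group means. Its log2 fold change was 0.062 with an interval of -0.044 to 0.17 (limma, adjusted p = 0.547). Of the summed Sod1 and Sod2 reads, Sod2 made up 42.5 and 44.6% in wild type and 44.2 and 44.1% in Pml-/-, so the balance of the cytosolic and mitochondrial genes overlapped as well.

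Sod3, the secreted dismutase, was too low to test at this depth. It had 0 and 2 reads in the wild-type libraries and 2 and 0 in the Pml-/- libraries. Each library lay under the level of 3 reads, which equals 0.068 to 0.096 CPM, so no fold change is given. That level is the limit that a count of 0 allows, and a count of 2 allows a higher one. Such limits cover counting error only.

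Ccs hands copper to SOD1. Its level was 42.8 and 43.3 CPM in the wild-type libraries and 48.1 and 41.9 CPM in the Pml-/- libraries. The wild-type libraries lay close together, while the Pml-/- libraries lay on both sides of them. The means were 43.1 ± 0.378 and 45.0 ± 4.41 CPM, and the log2 fold change was 0.059 with an interval of -0.098 to 0.22 (limma, adjusted p = 0.724). For every 100 Sod1 reads the libraries held 10.9 and 11.0 Ccs reads in wild type and 12.4 and 10.2 in Pml-/-.

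Cat (chr2:103453904-103485153), which encodes the heme enzyme catalase of peroxisomes, was at 94.0 and 90.1 CPM in wild type and at 88.5 and 96.1 CPM in Pml-/-. The Pml-/- libraries again enclosed the wild-type ones. The means were 92.1 ± 2.79 and 92.3 ± 5.31 CPM, with a log2 fold change of 0.0030 and an interval of -0.12 to 0.12 (limma, adjusted p = 0.987). Superoxide dismutases make the peroxide that catalase removes, and neither end of this path passed the test.

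The peroxiredoxins divide by their cysteines. Prdx2, Prdx3 and Prdx4 encode typical 2-Cys enzymes of the cytosol, the mitochondria and the endoplasmic reticulum, Prdx5 an atypical 2-Cys enzyme of several compartments, and Prdx6 a 1-Cys enzyme that also has phospholipase A activity and draws on glutathione. Prdx2 varied least over the 4 libraries among the 9 tested members, at 197 CPM in both wild-type libraries and at 197 and 192 CPM in Pml-/- (log2 fold change -0.015, 95% interval -0.11 to 0.081, limma adjusted p = 0.900). It lies on chromosome 8, where the median log2 fold change over 653 tested genes was -0.059, with 52 genes lower and 7 higher.

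Prdx3 was at 85.8 and 83.3 CPM in wild type and at 79.1 and 90.3 CPM in Pml-/-. The Pml-/- libraries enclosed the wild-type ones and were 14.1% apart, while the group means of 84.6 and 84.7 CPM differed by 0.193%. Prdx4 was at 33.3 and 30.9 CPM in wild type and at 31.8 and 31.3 CPM in Pml-/-. Here the wild-type libraries enclosed the Pml-/- ones. Prdx5 was at 32.6 and 30.9 CPM in wild type and at 32.6 and 29.6 CPM in Pml-/-. The log2 fold changes of Prdx3, Prdx4 and Prdx5 were -0.00018, -0.021 and -0.030 (limma, adjusted p = 0.999, 0.915 and 0.881).

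Prdx5 overlaps another gene at its start, which limits how its reads can be assigned. In RefSeq (GRCm38.p6) its span overlaps 409 bases of Trmt112, a gene on the opposite strand that encodes a partner of methyltransferases, and the annotated starts lie 408 bases apart. Trmt112 was at 37.7 and 36.7 CPM in wild type and at 32.6 and 33.5 CPM in Pml-/- (log2 fold change -0.17, limma adjusted p = 0.206). The sources used here do not say whether the counts are strand-specific, so reads of the overlap may stand under either gene.

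Prdx6 (chr1:161240112-161251210, RefSeq on GRCm38.p6) was at 264 and 278 CPM in the wild-type libraries and at 317 and 323 CPM in the Pml-/- libraries. Both Pml-/- libraries lay above both wild-type libraries. The mean rose from 271 ± 10.4 to 319.9 ± 4.76 CPM (SD, n = 2), an increase of 18.1%, with a log2 fold change of 0.24, a standard error of 0.045 and a 95% interval of 0.14 to 0.34 (limma, adjusted p = 0.00553). The change is small among those called: of the 248 genes called higher, 168 had a larger log2 fold change, and 12.7% of all tested genes differed by more in either direction. It rested on 8272 to 14132 reads per library, where counting error is at most 1.10%. In the authors' deposited table, whose edgeR log2 fold change is wild type over knockout, Prdx6 had -0.24 with a false discovery rate of 0.00459.

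The call ended without wild-type library 1, the lower of the wild-type pair, where the log2 fold change was 0.20 and limma's adjusted p = 0.0618, within a range of 0.000582 to 0.0618 over 11 alternatives. The labels name only a DNA library kit for wild-type library 2, and without that library limma's adjusted p = 0.00131. The 4 neuroectoderm markers summed to 262 and 273 CPM in wild type and to 240.2 and 242 CPM in Pml-/-. Of these, Sox1 and Nes fell (both by 0.44 on the log2 scale, limma adjusted p = 0.0105 and 0.00199), and Tubb3 (-0.067) and Pax6 (0.049) did not pass. Their part in the Prdx6 result was not tested. RefSeq lists Prdx6b and the pseudogenes Prdx6-ps2, Prdx2-ps1 and Prdx2-ps2 as copies. Prdx6b had 2, 1, 4 and 1 reads in the libraries, and the handling of reads that match more than 1 copy is not stated.

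**Figure D2:**
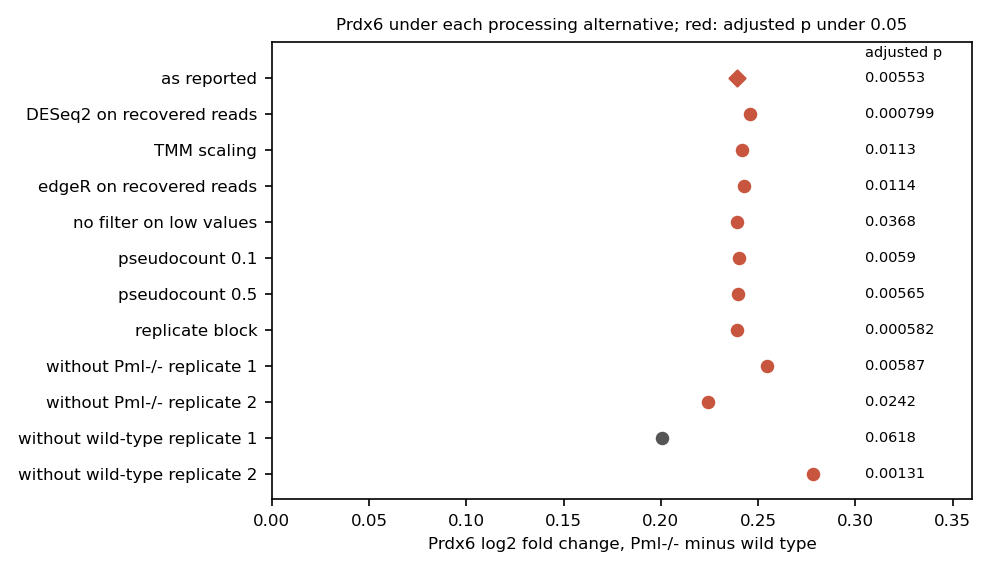
Each point is the Prdx6 log2 fold change (horizontal axis, Pml-/- minus wild type) under the processing named at the left, with its adjusted p at the right and red for an adjusted p under 0.05. All values lie above 0, between 0.20 and 0.28, and the point without wild-type replicate 1 has an adjusted p of 0.0618.

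The composition of the reads of the 5 member peroxiredoxins restates the Prdx6 values within each library, free of library scaling. It rests on the same Prdx6 reads and is not separate support. Prdx1, described below, is not a member and is left out, although it had more reads than Prdx6 in every library. Its level was highest in Pml-/- library 2, at 642 CPM. Shares with Prdx1 included would be lower, and their genotype difference was not computed. Of the reads of these 5 peroxiredoxins, Prdx6 held 43.1 and 44.9% in wild type and 48.2 and 48.5% in Pml-/-. The other 4 peroxiredoxins together summed to 348 and 342 CPM in wild type and to 341 and 343 CPM in Pml-/-. A test of whether Prdx6 changed more than another member was not made, and transcript lengths were not used, so no order of level between genes is given.

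The replicate gaps are set beside the genotype differences as a description. A difference of group means varies less than a gap between single libraries. On the log2(CPM + 1) scale the genotype difference was larger than both replicate gaps in 1 of 9 members. The share of all tested genes for which this holds was not computed, so the count describes these members only. For Prdx6 the gaps were 0.078 between the wild-type libraries and 0.030 between the Pml-/- libraries, against a genotype difference of 0.24. For Ccs the Pml-/- libraries differed by -0.20 (replicate 2 minus 1), against a genotype difference of 0.059. Replicate 2 was the higher wild-type library in 4 of 9 members and the higher Pml-/- library in 5 of 9.

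**Figure D3:**
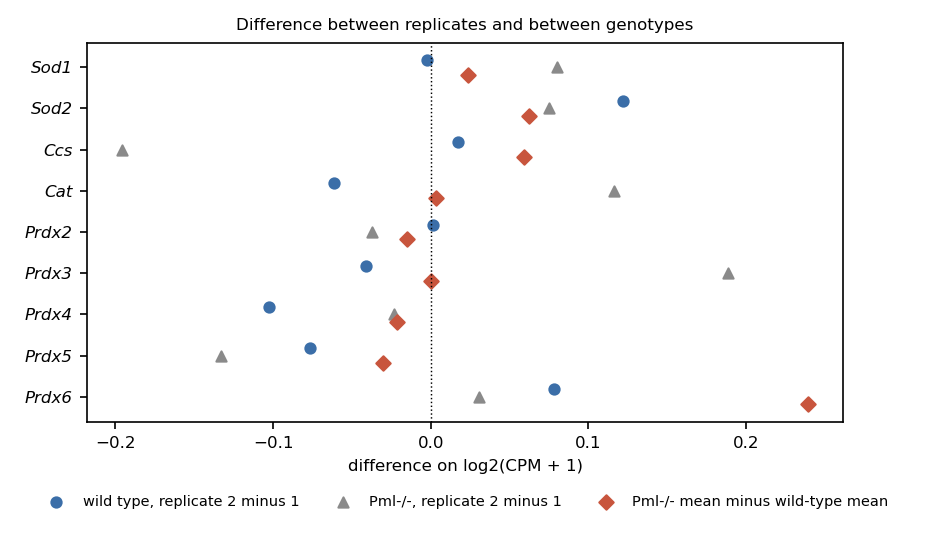
For each of the 9 tested genes, the horizontal axis gives the log2(CPM + 1) difference between the wild-type replicates (circles), between the Pml-/- replicates (triangles) and between the group means (diamonds). The Prdx6 diamond, at 0.24, lies beyond both of its replicate gaps, while each other diamond lies nearer to 0 than at least 1 gap of its gene.

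The limma intervals give a range of change for each of the 8 other tested members. Interval widths draw on the spread of all tested genes as well as on that of the gene itself. Intervals from each gene's own libraries alone were not computed. The 95% intervals of these 8 members reached from 0.873-fold to 1.16-fold of the wild-type level on the log2(CPM + 1) scale, at the ends set by Prdx5 and Ccs. The narrowest of the 8 lay around Sod1 and Prdx2. A change within a gene's interval is not excluded with 2 libraries a group, and the interval is not a limit of detection. The tested members had 1023 to 17960 reads per library, and the largest counting error was 3.13%.

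**Figure D4:**
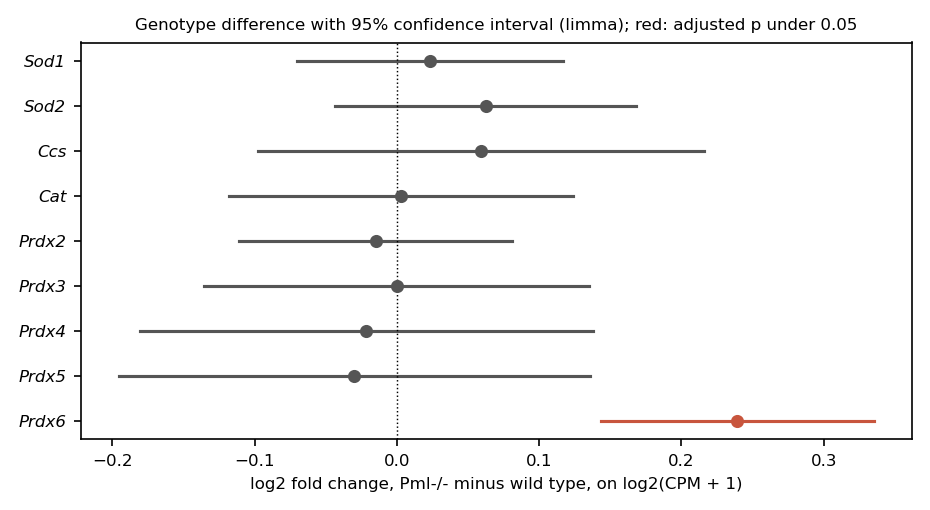
Points give each gene's log2 fold change (horizontal axis, Pml-/- minus wild type on log2(CPM + 1)) and lines its 95% confidence interval from limma, with red for an adjusted p under 0.05. The Prdx6 interval runs from 0.14 to 0.34, and the 8 others include 0.

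The members lie on 8 chromosomes. RefSeq promoter windows, 250 bases before to 50 after the start, were matched for 7 members and not for Sod3, Ccs and Prdx6. All 7 held a GC box (GGGCGG on either strand, the letters bound by SP1), against 35.7% of all 32851 windows and 63.6% of the 12368 windows of tested genes. The 7 windows held 57 to 68.7% G and C, against medians of 52.7% over all windows and 61% over those of tested genes. The motif counts were not adjusted for this. The antioxidant response element (TGACNNNGC on either strand), the letters that NRF2 binds, was found in 1 of 7, Sod1, against 12.4% of all windows and 14.4% of those of tested genes. A forkhead motif (GTAAACA, either strand) was found in 0 of 7, against 3.65% and 2.47%. The letters of a TATA box (TATAAA, either strand) were found in Sod1 and Prdx3, against 13.6% and 6.83%. The Sod1 match reads in the direction of the gene and begins 37 bases before the start. The Prdx3 match reads on the strand opposite to the gene and lies near the upstream end of the window, far from the start. The Sod1 window is shown because it held 3 of these 4 motifs. It covers chr16:90220512-90220811 of GRCm38.p6 on the plus strand, from RefSeq, with the antioxidant response element in capitals. The element reads on the minus strand and begins 56 bases before the start, apart from the TATA box that begins 37 bases before it and from the 4 GC boxes.
Sod1 promoter: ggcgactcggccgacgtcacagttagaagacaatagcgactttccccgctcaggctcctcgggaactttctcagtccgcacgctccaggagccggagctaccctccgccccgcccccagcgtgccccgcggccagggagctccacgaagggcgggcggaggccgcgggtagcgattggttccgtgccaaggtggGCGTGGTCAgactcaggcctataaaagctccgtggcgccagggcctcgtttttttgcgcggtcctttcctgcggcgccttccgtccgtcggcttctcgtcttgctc
A match of letters is a description and not a binding site, and Sod1 was among the genes that did not pass the test.

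Genes that supply, restore or feed these enzymes were read from 6 lists. Of 81 listed genes 66 were tested, and limma called 2 higher and 2 lower, 6.06% against 5.41% of all tested genes. In the thioredoxin system and the regeneration of peroxiredoxins, 1 of 16 rose and none fell, with a median of -0.037. That gene was Txndc12, a thioredoxin-fold protein of the endoplasmic reticulum, at 41.9 and 45.3 CPM in wild type and at 54.5 and 60.0 CPM in Pml-/- (log2 fold change 0.38, SE 0.069, limma adjusted p = 0.00418). Its groups did not overlap, and its call ended without Pml-/- library 2 (adjusted p = 0.0519). Prdx1, the remaining peroxiredoxin, is on this list and is named after its values were seen. It was at 537 and 556 CPM in wild type and at 553 and 642 CPM in Pml-/-, where library 2 stood apart (log2 fold change 0.12, limma adjusted p = 0.250). Without Pml-/- library 1 its log2 fold change was 0.23, and without Pml-/- library 2 it was 0.017.

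Copper supply gave 1 of 11 lower and none higher. Cox17, which carries copper to cytochrome oxidase in mitochondria, was at 69.7 and 68.0 CPM in wild type and at 57.4 and 60.3 CPM in Pml-/- (log2 fold change -0.22, limma adjusted p = 0.0372). Peroxisome biogenesis gave 1 of 16 lower and none higher. Pex5, the receptor that brings catalase and other enzymes into peroxisomes, was at 84.7 and 80.2 CPM in wild type and at 73.6 and 67.5 CPM in Pml-/- (log2 fold change -0.22, limma adjusted p = 0.0437). Both genes fell by a similar amount with separate groups, and both calls were near the threshold. The Cox17 call ended without each of the 4 libraries in turn (at most adjusted p = 0.196, in the absence of wild-type library 1), and the Pex5 call without wild-type library 1 (adjusted p = 0.254) or Pml-/- library 2 (adjusted p = 0.248). Neither was called by edgeR on the recovered reads (adjusted p = 0.0503 for Cox17 and 0.0524 for Pex5) or by DESeq2 (0.0873 and 0.0769), or by limma with no filter on low values (0.0736 and 0.0996).

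Among peroxide-producing oxidases 1 of 8 tested genes rose and none fell. Ero1l, which passes electrons from newly folded proteins to oxygen in the endoplasmic reticulum, was at 63.2 and 66.8 CPM in wild type and at 74.2 and 78.4 CPM in Pml-/- (log2 fold change 0.23, limma adjusted p = 0.0352). Its call ended without wild-type library 1 (adjusted p = 0.242) or Pml-/- library 2 (adjusted p = 0.193), by DESeq2 (adjusted p = 0.0587) and with no filter on low values (adjusted p = 0.0794). Superoxide-producing oxidases gave 0 of 6 tested genes by limma, with a median of 0.14, and 8 of the 14 listed, such as Nox1 and Cybb, were too low to test. Transcriptional regulators, among them Nfe2l2, Keap1 and Foxo3, gave 0 of 9. Both counts of 0 were also 0 at an unadjusted limma p under 0.05, by edgeR and by DESeq2. In either direction edgeR called 620 of its 14782 tested genes, and DESeq2 489 of 12214 genes with an adjusted p. The share of all tested genes at that unadjusted p in either direction was not computed. With 6 and 9 genes, these counts of 0 are not read as a difference from other genes.

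**Figure D5:**
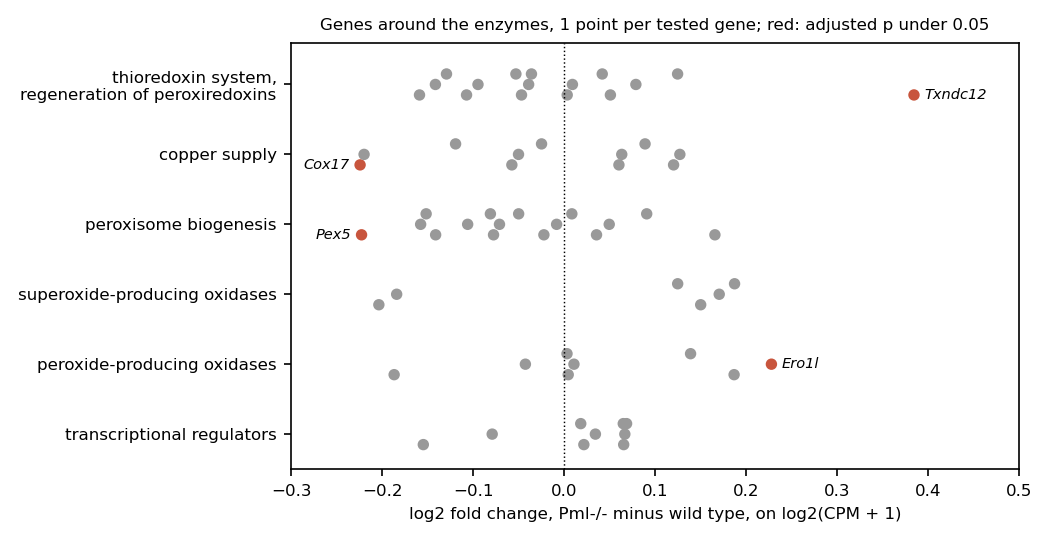
Each point is a tested gene of the list at the left, placed by its log2 fold change (horizontal axis, Pml-/- minus wild type on log2(CPM + 1)), with red and a name for an adjusted p under 0.05. Txndc12 at 0.38 and Ero1l at 0.23 lie above 0, and Cox17 and Pex5, both at -0.22, lie below.

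Prdx6 was the called member, and the genes whose pattern over the 4 libraries was most like it were Kpna1, Slc2a3 and Sept9. Likeness was the root mean square difference of log2(CPM + 1), centred on each gene's mean, over 12067 genes with assigned names. It was 0.010 for Kpna1 and for Slc2a3 and 0.011 for Sept9. Kpna1, a nuclear import adaptor gene, was at 110 and 115 CPM in wild type and at 130 and 132 CPM in Pml-/-. Slc2a3, a glucose transporter gene, was at 1179 and 1245 CPM in wild type and at 1437 and 1440 CPM in Pml-/-. Sept9, a septin gene, was at 179 and 187 CPM in wild type and at 216 and 221 CPM in Pml-/-. Likeness over 4 libraries includes the genotype difference itself.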

How the data were processed

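The data were one table of RNA-seq values for 4 libraries; the 2 samples of PML-associated chromatin were not used here. Per the submitters' processing notes, the tools were cutadapt, TopHat and edgeR on mm10; their versions, the annotation, the use of strand and the handling of reads that match several genes are not given in the sources used. In the deposited table the CPM of each library add up to 1000000, and 100% of values were whole reads within 0.001 when divided by the value of 1 read. The authors' log2 fold change, p-value and false discovery rate were deposited beside them and are quoted for Prdx6 alone.

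The main test was limma-trend (limma version 3.58.1 in R version 4.3.3) of log2(CPM + 1) values, with genotype as the only term. It covered genes averaging 1 CPM or more, with Benjamini-Hochberg adjustment over all of them and a threshold of 0.05. The test was run on simulated counts, where the smallest change simulated was larger than that of Prdx6. That run does not show how often a change of the Prdx6 size is called. Alternatives were a replicate block, leaving out each library, pseudocounts of 0.1 and 0.5, no filter, TMM scaling, and edgeR 4.0.16 (quasi-likelihood) and DESeq2 1.42.0 on the recovered reads. The 10 members, the related lists and the tests were all chosen with earlier results of these data known. Named genes are all members, up to 4 called genes of each list, the 3 genes most like a called member, and overlapping genes or copies. Promoter windows came from RefSeq (GRCm38.p6).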

Additional observations from a re-analysis of the deposited data

How the results depend on the processing

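Under all 11 alternatives Prdx6 kept its direction, with log2 fold changes of 0.20 to 0.28, and its call ended in 1, without wild-type library 1 (0.20, adjusted p = 0.0618). The other 8 tested members gave 88 values, of which 0 passed the threshold (lowest adjusted p = 0.311) and 13 changed sign, reaching at most 0.094 in size. Leaving out a library gave -0.017 to 0.064 for Sod1, 0.0013 to 0.12 for Sod2, -0.039 to 0.16 for Ccs, -0.055 to 0.061 for Cat, -0.033 to 0.0037 for Prdx2, -0.094 to 0.094 for Prdx3, -0.073 to 0.030 for Prdx4 and -0.097 to 0.036 for Prdx5. Prdx3 was also above 0 with TMM scaling (0.0023), edgeR (0.0080) and DESeq2 (0.011). Sod3 was too low to test. The count of called members was 0 to 1 on leaving out a library, and that of all genes 367 to 869. With no filter on low values, which tests more genes, 298 genes were called. With the replicate number as a block limma called 1198, and Prdx6 had an adjusted p of 0.000582. The labels link same-numbered libraries by number alone and do not say whether they were handled together. The correlation of their deviations was 0.12 over 12710 genes. The block changed the call of no member. The cause of these changes was not tested.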
